A study of Mus musculus with 4 samples.

Results

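The Macrophage cluster was the largest of 9 clusters that the authors named in a single-cell RNA sequencing series on mouse bone marrow-derived macrophages, primary cells grown out of bone marrow in the growth factor M-CSF (50 ng/mL). Its members were the cells to which the deposited cell annotation gave that name, 8740 of 27366 cells (31.94%). Marrow came from mice of 8 to 12 weeks, per the labels. There were 4 libraries: cells labelled Trpv4-null kept for 24 h in 100 ng/mL of lipopolysaccharide (LPS, a component of bacterial outer membranes), untreated cells labelled Trpv4-null, wild-type (WT) C57BL/6J cells kept in the same LPS dose, and untreated WT cells. The growth protocol writes the WT strain as C57BL/6. All cells of all groups had been differentiated in M-CSF. The series' design text speaks of 3 mice per genotype and 12 samples, but the cell annotation does not say which mouse a cell came from, so each group counts as 1 library and its differences from other groups could not be checked against replicates. No test was run, ratios are descriptions of these libraries, and all intervals are 95% intervals that cover counting error only.

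Macrophages are phagocytes that take up microbes, dying cells and debris, and they depend on signalling through the M-CSF receptor for survival. LPS is sensed by TLR4, which signals through the adaptor MyD88 to NF-kB and cytokine genes and through the adaptor TRIF to type I interferon and the interferon-stimulated genes. TRPV4 is a calcium-permeable channel that opens on mechanical and osmotic stimuli. The comparisons asked how this cluster differs from the other clusters of the same cultures, how it answers LPS, and whether the genotype label goes with a difference in either state.

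The members numbered 1751 of 6565 cells after LPS and 1943 of 5485 untreated cells in the libraries labelled Trpv4-null, against 2398 of 8288 cells after LPS and 2648 of 7028 untreated cells in WT. The share was 26.67% after LPS (exact binomial interval 25.60 to 27.76) and 35.42% untreated (34.16 to 36.71) with the Trpv4-null label. In WT it was 28.93% after LPS (27.96 to 29.92) and 37.68% untreated (36.54 to 38.82). Both LPS libraries thus held a lower share than both untreated libraries. The members were shallower than the other cells of their library. Their median was 13359 UMIs (unique molecular identifiers, 1 per captured transcript) after LPS and 6858 UMIs untreated with the Trpv4-null label, and 13564.5 and 4859 UMIs in WT after LPS and untreated. The other clusters together had medians of 16945 UMIs after LPS and 8492 UMIs untreated with the Trpv4-null label, and 17782.5 and 6135.5 UMIs in WT. Of the 1090 cells with under 3000 UMIs in the series, 733 (67.25%) were members, and the members made up 55.02 to 64.82% of the tenth of cells with the fewest UMIs in each library but 15.12 to 16.53% of the tenth with the most. Among cells with 3000 UMIs or more the shares were 26.21% after LPS and 33.87% untreated with the Trpv4-null label, and 28.32% and 34.75% in WT, so the order of LPS and untreated libraries held. The part of depth in cluster membership was not tested.

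**Figure D1:**
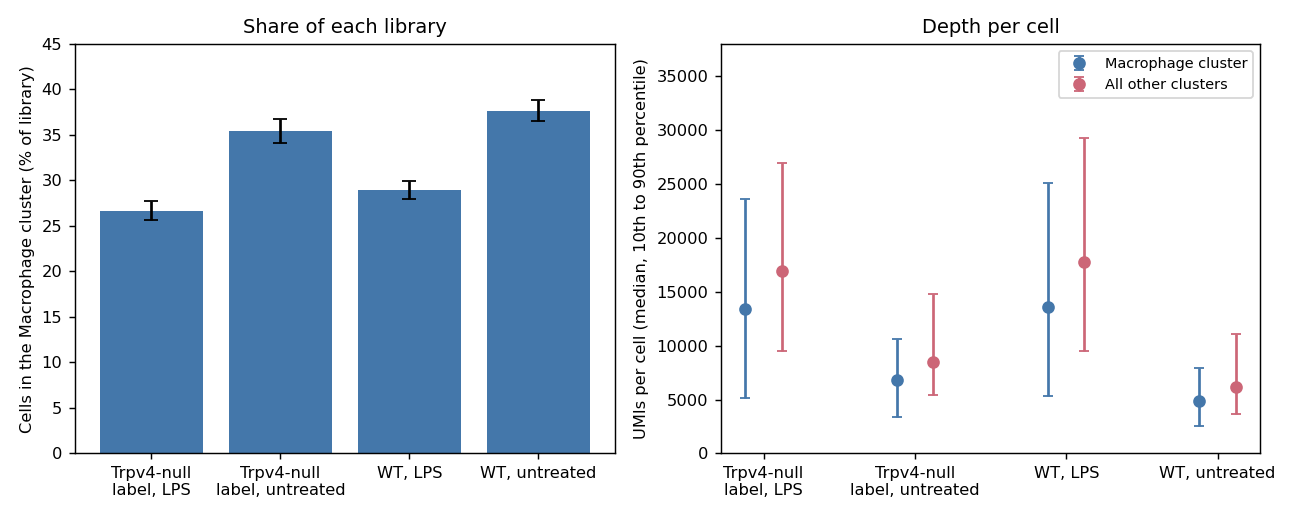
Left: share of each library's cells in the Macrophage cluster (bars, %) with exact binomial 95% intervals. Right: UMIs per cell (points, median; lines, 10th to 90th percentile) in the Macrophage cluster and in all other clusters together. The share lies lower in both LPS libraries (26.67% and 28.93%) than in both untreated ones (35.42% and 37.68%), and the Macrophage median lies under that of the other clusters in all 4 libraries.

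Summed over members, the libraries held 13674473 to 34549225 UMIs, and levels are given as CPM, counts per 1000000 UMIs of the cluster in that library. Members of different libraries shared at most 2 cell barcodes per pair. Trpv4 itself had 9.90 CPM after LPS and 9.63 CPM untreated in members labelled Trpv4-null, against 2.40 CPM after LPS and 6.07 CPM untreated in WT members. Its counts were therefore not lower under the null label: the ratio of labelled Trpv4-null to WT was 4.12 after LPS (exact conditional interval 3.20 to 5.36) and 1.59 untreated (1.20 to 2.11). Which part of the gene the allele lacks is not given in the sources used here, so these counts need not check the label, and the libraries are called labelled Trpv4-null throughout. Lastly, 17 members stood apart: S100a8 and S100a9, which encode the calcium-binding proteins that fill the cytosol of neutrophils, held 3.04 to 32.2% of their UMIs, while the next highest member had 0.0938%. There were 1 of 1751 and 9 of 1943 such cells after LPS and untreated with the Trpv4-null label, and 2 of 2398 and 5 of 2648 in WT, and 5 among the 18626 cells of the other clusters. They carried 99.72% of the cluster's S100a9 UMIs, 99.76% of those of Ngp and 99.39% of those of Ltf, which encode neutrophil granule proteins. Their Adgre1 level was 252 CPM, against 1808 CPM in the rest of the cluster. Results that rest on these 17 cells are given with and without them.

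The cluster's name fitted the markers given for it. Adgre1, which encodes the F4/80 surface protein, had 2042 CPM after LPS and 1199 CPM untreated with the Trpv4-null label, and 2159 and 1108 CPM in WT. Csf1r, the M-CSF receptor, had 675 CPM after LPS and 1618 CPM untreated with the Trpv4-null label, and 687 and 1534 CPM in WT. Lyz2, which encodes lysozyme, lay between 16160 and 21950 CPM and C1qb, a chain of the complement protein C1q, between 2012 and 2361 CPM in the 4 libraries. The cluster was not set apart by these genes, however. The 4 markers summed to 21060 CPM after LPS and 24360 CPM untreated in members labelled Trpv4-null, against 18220 and 23960 CPM in the other clusters of those libraries. In WT the sums were 22080 CPM after LPS and 26950 CPM untreated in members, against 19950 and 27390 CPM in the other clusters. A wider list of 12 macrophage markers stood at 20 CPM or more for 12 of 12 in every library. No stromal, erythroid, mast cell, T cell, NK cell or endothelial marker in the table reached 20 CPM in members, but the table held few of them: 3 of 8 stromal, 2 of 8 erythroid, 2 of 8 mast cell, 2 of 10 T or NK cell and 4 of 6 endothelial markers. In other lists a single gene or a pair did so, listed here by their highest library: Ighm for B cells (172 CPM), Ccr3 for eosinophils (23.2 CPM), Ly6a for progenitors (181 CPM), Nfatc1 (53.1 CPM) and Acp5 (22.95 CPM) for osteoclasts, and Bst2 (2573 CPM) and Irf8 for dendritic cells. After LPS, monocyte markers were led by Ms4a4c, at 786 CPM with the Trpv4-null label and 695 CPM in WT, against 9.20 and 6.00 CPM untreated. Hp also passed 20 CPM after LPS (70.0 and 86.5 CPM). Untreated, Chil3 was the highest, at 52.85 CPM with the Trpv4-null label and 14.2 CPM in WT. Without the 17 cells Chil3 had 0.0727 and 0.293 CPM untreated. The 8 neutrophil markers in the table summed to 146 CPM after LPS and 1020 CPM untreated with the Trpv4-null label, and 142 and 272 CPM in WT. Without the 17 cells they summed to 94.2 CPM after LPS and 54.4 CPM untreated with the Trpv4-null label, and 83.3 and 38.5 CPM in WT.

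Pooled against all other cells, the members held less of most genes that other clusters are named for. The clusters nearest to them were as low in several of these genes. The name gene Btg1 differed little, with a median log2 ratio over libraries of -0.04. The 2 Tmem176 genes were lower in members by less than 2-fold, with medians of -0.89 and -0.75. Of 4763 genes that reached 20 CPM and 30 UMIs in the higher group of cells of every library, 0 were 2-fold or more higher in members than in all other cells in all 4 libraries (0.00%), and 12 were 2-fold or more lower (0.252%). The clusters had been made from these counts, so the values are a description. The 12 were H2-Aa, H2-Ab1 and Cd74 of the MHC class II route of antigen presentation, Top2a, Birc5, Mki67, Stmn1, Cdk1 and Smc2 of cell division, the lipid-binding genes Fabp4 and Apoe, and the chemokine Ccl4. Within each library, 97.77 to 98.61% of the genes lay within 0.5 log2 units of the other cells. H2-Aa had 3.56 CPM after LPS and 1.88 CPM untreated in members labelled Trpv4-null, against 39.0 and 71.0 CPM in the other clusters. Top2a, which encodes the topoisomerase of dividing cells, had 4.17 CPM after LPS and 4.63 CPM untreated in the same members, against 51.1 and 131 CPM in the other clusters. These contrasts came from few clusters. H2-Aa had 2.59 CPM after LPS and 2.42 CPM untreated in the High_Apoe cluster with the Trpv4-null label, against 492 and 938 CPM in the Cd74+ cluster. Top2a had 4.10 CPM after LPS and 3.70 CPM untreated in the High_Apoe cluster with that label, against 327 and 673 CPM in the Proliferating cluster. Low H2-Aa and Top2a levels were thus not particular to the members. The differences were wider against the single cluster that a gene names. Cd74, the MHC class II invariant chain, had 45.6 CPM after LPS and 67.4 CPM untreated in members labelled Trpv4-null, against 1998 and 3497 CPM in the Cd74+ cluster. Apoe, the lipid carrier apolipoprotein E, had 2850 CPM untreated in members labelled Trpv4-null and 2077 CPM in WT members, against 13750 and 13390 CPM in the High_Apoe cluster. Ifit1bl1, an interferon-stimulated gene, had 0.507 CPM in untreated members labelled Trpv4-null and 0.439 CPM in untreated WT members, against 262 and 267 CPM in the Ifit1bl1+_Cmpk2+ cluster. Il1b, the cytokine interleukin-1 beta, had 129 CPM after LPS in members labelled Trpv4-null and 352 CPM in WT members, against 595 and 1242 CPM in the Il1b+_Cxcl2+ cluster.

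**Figure D2:**
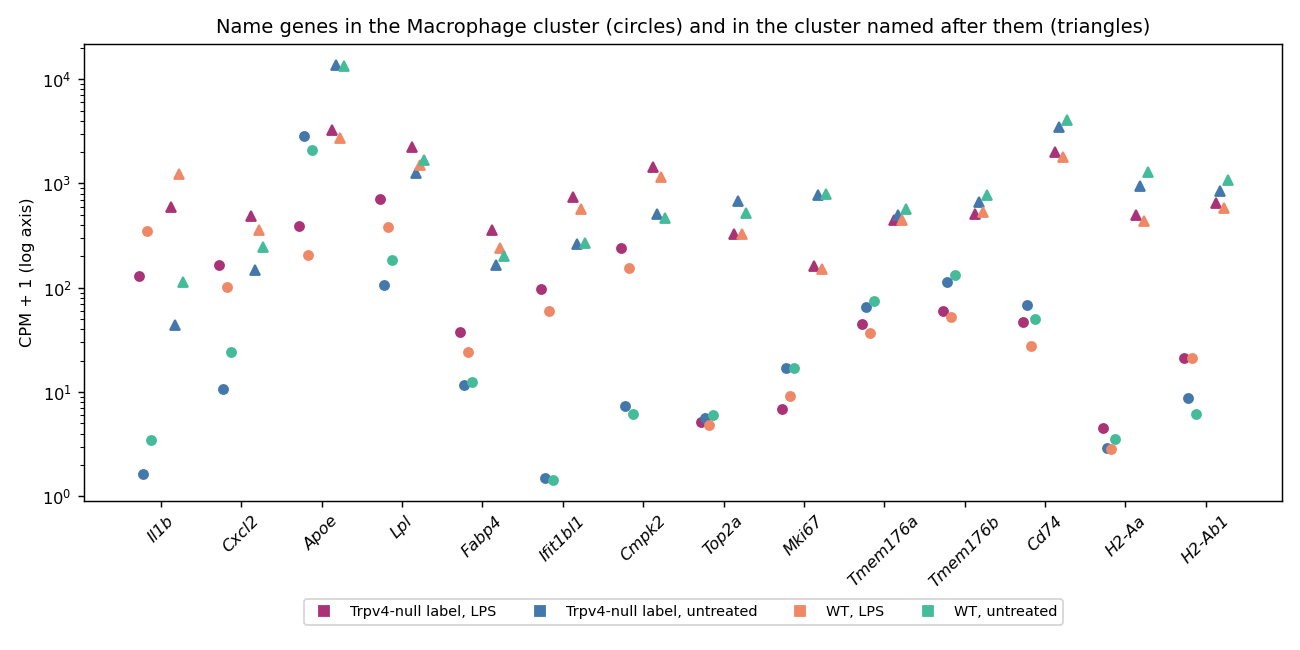
Level (CPM + 1, log axis) of the genes that name or define the other clusters, in the Macrophage cluster (circles) and in the cluster named after the gene (triangles), 1 point per library; H2-Aa and H2-Ab1 are shown with the Cd74+ cluster. For every gene plotted the circles of a library lie under its triangle, for example at 45.6 against 1998 CPM for Cd74 in the LPS library labelled Trpv4-null.

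Cell-cycle genes were low in the members. A list of 52 genes of the G2 and M phases summed to 461 CPM after LPS and 958 CPM untreated with the Trpv4-null label, and to 477 and 958 CPM in WT. In the Proliferating cluster it summed to 4673 CPM after LPS and 13680 CPM untreated with the Trpv4-null label, and to 4327 and 13030 CPM in WT. In the 6 clusters other than Proliferating and High_Btg1 (67 cells) the same sum ran from 453 to 522 CPM after LPS and from 733 to 1005 CPM untreated, a range that holds the members' values. S phase genes likewise summed to 376 to 467 CPM in members, against 1390 to 3187 CPM in the Proliferating cluster. Among the 7 other clusters compared one by one (High_Btg1, with 67 cells in all, was left out), the nearest was High_Apoe, from which 7 to 13 genes per library stood 2-fold or more apart. Next was Il1b+_Cxcl2+ with 18 to 32 genes, and the farthest was Proliferating with 401 to 552 genes. On the higher side in members the ratios were small in all 4 libraries. The median log2 ratio to the other cells was 0.46 for Gab1, an adaptor of growth factor receptors, 0.44 for C1qa, which encodes another C1q chain, 0.44 for the kinase Camk1d, 0.40 for Igfbp4, a binder of insulin-like growth factors, 0.39 for the integrin chain Itgal and 0.38 for Glul, which encodes glutamine synthetase. C1qa had 1225 CPM after LPS and 740 CPM untreated in members labelled Trpv4-null, against 891 and 557 CPM in the other clusters, and WT members had 1105 and 729 CPM, against 775 and 544 CPM. S100a9 (median log2 ratio 2.93) and S100a8 (0.91) stood above them, carried by the 17 cells described above. Without the cells high in both genes, in members and other clusters alike, the medians were 0.03 for S100a9 and -0.40 for S100a8. All 12 compared transcripts of the mitochondrial genome were higher in members in the median over libraries (median 0.19), while over all genes compared the median was 0.03. The median share of mitochondrial UMIs per cell was 3.59% after LPS and 6.48% untreated in members labelled Trpv4-null and 3.42% and 6.43% in WT members. In the other cells it was 3.05% after LPS and 5.96% untreated with the Trpv4-null label, and 2.92% and 5.83% in WT. A share near the members' was not particular to them. The Proliferating cluster had 3.615% after LPS and 6.408% untreated with the Trpv4-null label, and 3.583% and 6.304% in WT. High_Apoe had 3.267% and 5.91% with the Trpv4-null label, and 3.398% and 5.984% in WT. The part of the mitochondrial share in these small ratios was not tested.

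After LPS the members differed from untreated members in a large part of the genes compared. Acute-phase, chemokine and interferon-stimulated genes were higher in LPS members of both genotypes, and ferroportin and mannose receptor genes were lower. A gene was compared where it reached 20 CPM and 30 UMIs in the higher library, and ratios are log2 of CPM plus a pseudocount of 1, which understates ratios of genes near 1 CPM. In members labelled Trpv4-null, 470 of 6343 genes were 2-fold or more higher after LPS than untreated (7.41%) and 1378 were 2-fold or more lower (21.7%). In WT members, 432 of 6347 genes were higher (6.81%) and 1203 lower (19.0%). This split depends on the scaling. Fth1, which encodes the iron store ferritin heavy chain, had 107240 CPM after LPS and 35492 CPM untreated with the Trpv4-null label, and 112710 and 39507 CPM in WT, and the median gene lay at -0.40 in both genotypes. Under TMM factors the median was 0.20 with the Trpv4-null label and 0.19 in WT, with 976 genes higher and 523 lower with the Trpv4-null label and 893 and 419 in WT. Median-of-ratios factors gave 1029 and 504 with the Trpv4-null label and 877 and 425 in WT. The share of the counted genes that were higher was thus 25.43% with the Trpv4-null label and 26.42% in WT by total counts, and 65.11% and 68.06% by TMM.

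The 4 highest ratios among genes with a given name were those of Saa3, Ccl5, Acod1 and Cxcl10 in both genotypes. Saa3, a serum amyloid A protein, had 44085 CPM after LPS and 6.59 CPM untreated with the Trpv4-null label (log2 ratio 12.50), and 49785 and 4.02 CPM in WT (13.28). It was the second most abundant transcript of the members after LPS in both genotypes. Ccl5, a chemokine for T cells and monocytes, had 12240 CPM after LPS and 3.77 CPM untreated with the Trpv4-null label (11.33), and 11660 and 3.29 CPM in WT (11.41). Acod1, which encodes the enzyme that makes itaconate, had 1401 and 0.145 CPM with the Trpv4-null label (10.26), and 1055 and 0.366 CPM in WT (9.59). In both genotypes the untreated members were thus near 0 for Acod1. Cxcl10, a chemokine induced by interferon, had 1517 CPM after LPS and 1.30 CPM untreated with the Trpv4-null label (9.36), and 713 and 1.68 CPM in WT (8.06). Among the 10 highest were also Fpr1 and Fpr2, receptors for formylated bacterial peptides, at 7.19 and 7.18 with the Trpv4-null label and 7.13 and 7.08 in WT. Cd38, an enzyme that consumes NAD, had 151 CPM after LPS and no UMI untreated with the Trpv4-null label, and 138 and 0.0731 CPM in WT (7.02). Ifi205, an interferon-stimulated gene, stood at 7.04 with the Trpv4-null label and 7.14 in WT. Marco, Il1b and Tnf ranked lower. Marco, a scavenger receptor for bacteria, had 127 and 0.145 CPM with the Trpv4-null label (6.81), and 224 and 1.46 CPM in WT (6.51). Il1b had 129 and 0.652 CPM with the Trpv4-null label (6.30), and 352 and 2.49 CPM in WT (6.66). Tnf, the cytokine tumour necrosis factor, had 71.3 and 1.52 CPM with the Trpv4-null label (4.84), and 48.5 and 3.36 CPM in WT (3.50). Lcn2, which binds bacterial iron carriers, depended on the 17 cells. It had 262 CPM after LPS and 58.2 CPM untreated with the Trpv4-null label (2.15), and 276 and 18.9 CPM in WT (3.80). Without those cells it had 255 and 0.145 CPM with the Trpv4-null label (7.80), and 269 and 0.0732 CPM in WT (7.98). Some inflammatory genes were sparse in members at 24 h. Nos2, which encodes inducible nitric oxide synthase, had 4.46 CPM after LPS with the Trpv4-null label and 2.40 CPM in WT, and no UMI in either untreated library. Against a floor of 3 UMIs in the untreated library, Nos2 was at least 20.5-fold higher after LPS with the Trpv4-null label and at least 10.9-fold higher in WT. In the other clusters Nos2 reached 31.3 CPM after LPS with the Trpv4-null label and 11.6 CPM in WT. Il6, the cytokine interleukin-6, stayed at or under 0.434 CPM and Il10, an anti-inflammatory cytokine, between 1.30 and 2.21 CPM in members of all 4 libraries.

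Ighm, Slc40a1 and Cd28 had the 3 lowest ratios among genes with a given name in both genotypes. Slc40a1, the iron exporter ferroportin, had 2.21 CPM after LPS and 393 CPM untreated with the Trpv4-null label (-6.94), and 4.54 and 564 CPM in WT (-6.67). Cd28, best known as a co-stimulatory receptor of T cells, had 1.64 and 356 CPM with the Trpv4-null label (-7.08), and 1.94 and 260 CPM in WT (-6.47). Ighm, the heavy chain of IgM, had no UMI after LPS and 172 CPM untreated with the Trpv4-null label, and 0.0289 and 156 CPM in WT (-7.26). Ighm and Cd28 are textbook lymphocyte genes. Of 7 B cell markers the table held 4, and those other than Ighm (Cd79b, Ms4a1 and Ebf1) reached at most 4.46 CPM. Of 10 T or NK cell markers it held Cd3d and Cd4, with at most 0.0868 and 15.6 CPM. Ighm counts were spread over many untreated WT members. With cells thinned to an equal number of UMIs, 31.8% of these members had an Ighm UMI, with a mean of 0.505 UMIs per cell. The part of lymphocytes in the Ighm and Cd28 counts was not tested. Among the 10 lowest in both genotypes were also Cenpa, a histone variant of the centromere, at -5.57 with the Trpv4-null label and -5.72 in WT, the receptor Gpr34 at -5.80 and -5.53, the organic anion transporter Slco2b1 at -5.62 and -5.31, and Samd4, an RNA-binding protein, at -5.19 and -5.42. Id3 was among the 10 lowest in WT alone, and Mrc1 in neither genotype. Id3, an inhibitor of basic helix-loop-helix factors, had 2.86 and 59.5 CPM with the Trpv4-null label (-3.97), and 1.27 and 151 CPM in WT (-6.07). Mrc1, the mannose receptor, had 55.1 and 586 CPM with the Trpv4-null label (-3.39), and 70.4 and 587 CPM in WT (-3.04). The marker Csf1r had a ratio of -1.26 with the Trpv4-null label and -1.16 in WT, and the marker Adgre1 one of 0.77 and 0.96. Slc40a1, Cd28, Ighm, Id3, Mrc1, Csf1r and Adgre1 kept their direction under TMM and median-of-ratios factors.

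By gene list, nearly all interferon-stimulated genes were higher after LPS. For the counts below, 7.41% of all genes compared were 2-fold or more higher with the Trpv4-null label and 6.81% in WT, by total counts. Of 43 genes compared, 42 were 2-fold or more higher after LPS in both genotypes. Their median was 3.58 with the Trpv4-null label and 3.66 in WT, against -0.40 over all genes compared. Genes could pass the floor through the LPS library alone, so list counts lean towards genes high after LPS. Between the untreated libraries, 23 of these genes and 6 of 19 chemokines passed it. Isg15, a ubiquitin-like modifier, had 2117 CPM after LPS and 16.4 CPM untreated with the Trpv4-null label, and 1472 and 14.5 CPM in WT. Ifit2, which binds viral RNA, had 559 and 5.79 CPM with the Trpv4-null label, and 436 and 3.66 CPM in WT. Rsad2, which encodes the antiviral enzyme viperin, had 842 and 16.7 CPM with the Trpv4-null label, and 512 and 10.0 CPM in WT. Of 19 chemokines, 13 could be compared after LPS. Of these, 12 were 2-fold or more higher with the Trpv4-null label (median 4.57) and 10 in WT (4.39). MHC class I presentation genes were 2-fold or more higher for 15 of 16 in both genotypes (1.77 and 1.71), among them the peptide transporter Tap1 at 2.81 and 2.82. Of 20 genes of the NF-kB subunits and their feedback inhibitors, 10 were 2-fold or more higher with the Trpv4-null label and 8 in WT. Nfkbia, the inhibitor IkB alpha, had 398 CPM after LPS and 97.2 CPM untreated with the Trpv4-null label, and 373 and 115 CPM in WT. The subunits Nfkb1 and Rela had ratios of -0.18 and -0.11 with the Trpv4-null label and of -0.30 and -0.38 in WT, directions that turned round under both other scalings. Glycolysis and hypoxia genes were 2-fold or more higher for 5 of 21 with the Trpv4-null label (median 0.80) and for 12 of 21 in WT (1.15). Transcripts of the mitochondrial genome were below 0 for 13 of 13 in both genotypes (-0.95 and -0.96), and their median stayed negative under both other scalings. Of all genes compared, 1951 of 6343 lay above 0 with the Trpv4-null label and 1808 of 6347 in WT, by total counts. Immediate-early genes, which cells switch on within minutes of a stimulus, were 2-fold or more lower for 4 of 16 with the Trpv4-null label (median -0.51, a sign that turned round under TMM), near the 21.7% and the median of -0.40 over all genes. In WT, 10 of 16 were 2-fold or more lower (-1.28), against 19.0% of all genes. The medians of the lysosome list (-0.46 and -0.50) and of the TLR4 signalling list (-0.26 and -0.30) turned positive under both other scalings and are given no direction.

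The promoters of 4 genes that the LPS and genotype results name are shown, all of them with a match to a motif searched. Rsad2 and Cxcl10 are an interferon-stimulated gene and a chemokine that were higher after LPS, Cxcl2 is a chemokine whose genotype ratio differed in sign between untreated and LPS members, and Dusp1 is the immediate-early gene with the lowest genotype ratio in untreated members. Each is the stretch from 250 bases before to 50 bases after the annotated start in the RefSeq table for GRCm38.p6, written 5′ to 3′ on the strand of the gene: chr12:26456403-26456702 on the minus strand for Rsad2, chr5:92348840-92349139 on the minus strand for Cxcl10, chr5:90903649-90903948 on the plus strand for Cxcl2 and chr17:26508423-26508722 on the minus strand for Dusp1. Capitals mark matches on either strand to GAAA followed by any 2 bases and GAAA (the core of the interferon response element), to GGGAA followed by any 3 bases and CC (a form of the NF-kB element), or to TGACGTCA (the cyclic AMP response element).
Rsad2: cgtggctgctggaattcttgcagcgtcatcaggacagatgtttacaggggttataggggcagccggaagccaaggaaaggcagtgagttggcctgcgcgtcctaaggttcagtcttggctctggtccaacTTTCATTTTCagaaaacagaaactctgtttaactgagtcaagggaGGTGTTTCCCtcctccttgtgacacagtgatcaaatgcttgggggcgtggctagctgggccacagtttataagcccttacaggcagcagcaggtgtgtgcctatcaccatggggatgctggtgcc
Cxcl10: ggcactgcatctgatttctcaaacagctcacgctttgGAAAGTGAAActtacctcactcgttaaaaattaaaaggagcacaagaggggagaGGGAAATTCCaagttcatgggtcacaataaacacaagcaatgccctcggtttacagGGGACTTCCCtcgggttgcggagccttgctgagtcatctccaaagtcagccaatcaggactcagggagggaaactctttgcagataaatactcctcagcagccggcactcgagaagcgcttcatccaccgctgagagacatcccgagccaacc
Cxcl2: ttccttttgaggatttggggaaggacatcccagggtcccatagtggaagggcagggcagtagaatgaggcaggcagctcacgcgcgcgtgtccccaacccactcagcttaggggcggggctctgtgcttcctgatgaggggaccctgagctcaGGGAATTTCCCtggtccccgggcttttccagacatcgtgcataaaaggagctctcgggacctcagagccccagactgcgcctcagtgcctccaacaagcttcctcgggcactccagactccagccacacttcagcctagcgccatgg
Dusp1: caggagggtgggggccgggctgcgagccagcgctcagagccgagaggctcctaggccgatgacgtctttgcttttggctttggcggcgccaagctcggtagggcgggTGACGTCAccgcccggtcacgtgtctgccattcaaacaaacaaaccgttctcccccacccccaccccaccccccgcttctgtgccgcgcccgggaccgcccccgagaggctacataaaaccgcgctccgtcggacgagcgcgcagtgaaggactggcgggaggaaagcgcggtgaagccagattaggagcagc
Rsad2 held 1 interferon match and 1 NF-kB match, and Cxcl10 held 1 interferon match and 2 NF-kB matches. In Cxcl2 the capitals cover 2 NF-kB matches that overlap, and Dusp1 held 1 cyclic AMP match. They do not stand for their lists. Of other promoters searched, Ifit1 held 2 interferon matches and Saa3 held 1, while those of Ifit2, Ccl3, Il1b, Acod1, Fos and Fosb held no match to any of the motifs. Over all 32851 promoters of the table, 3.44% held the interferon letters, 5.78% the NF-kB letters and 1.79% the cyclic AMP letters. Among the promoters of genes 2-fold or more higher after LPS in WT members (351 of 432 genes matched by symbol, 448 promoters), the shares were 16.1%, 10.5% and 1.56%. Among those of genes 2-fold or more lower (932 genes, 1288 promoters) they were 2.56%, 7.38% and 2.72%, and among all genes compared 3.67%, 6.91% and 3.18%. In the interferon-stimulated list, 21 of 34 matched genes held the interferon letters (61.8%), and in the chemokine list 5 of 13 held the NF-kB letters (38.5%). In the immediate-early list 2 of 17 held the cyclic AMP letters (11.8%). These list shares count genes with a match in any of their promoters, while the shares before them count promoters. Counted by gene, 4.52%, 8.14% and 3.695% of all genes compared in WT members held the interferon, NF-kB and cyclic AMP letters. A match is a description of letters and not of a bound site.

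The members' LPS response was close to that of the other cells of the same libraries. With the Trpv4-null label, 407 genes were 2-fold or more higher in both, which is 87.15% of the 467 counted in members and 95.09% of the 428 counted in the other cells. In WT it was 389 genes, 90.47% of 430 and 96.05% of 405. The log2 ratio differed between members and other cells by 1 or more for 40 of 6140 genes with the Trpv4-null label and for 28 of 6162 in WT. Both counts include the members high in S100a8 and S100a9. With the Trpv4-null label the largest differences were those of Lcn2 (2.15 in members, 6.83 in other cells) and Wfdc21 (0.23 and 4.43). Without those cells the members' ratios were 7.80 and 4.48. Several of the genes that differed by 1 or more were interferon-stimulated genes and chemokines. Their ratio was larger in members and their untreated level was lower there than in the other cells. Cxcl10 had 1.30 CPM in untreated members labelled Trpv4-null and 1.68 CPM in WT members, against 39.4 and 38.9 CPM in the other untreated cells. Its log2 ratio to untreated was 9.36 with the Trpv4-null label and 8.06 in WT in members, against 5.87 and 5.23 in the other cells. In single other clusters the ratio ran from 3.14 to 10.79 with the Trpv4-null label and from 2.44 to 10.48 in WT, so the members lay inside the range. Its untreated level was 684 CPM with the Trpv4-null label and 872 CPM in WT in the Ifit1bl1+_Cmpk2+ cluster, while in the other 6 clusters it reached at most 11.2 and 9.52 CPM. After LPS its level in members was below that of the other cells, at 1517 against 2362 CPM with the Trpv4-null label and 713 against 1498 CPM in WT. Ifit2 likewise had 5.79 CPM in untreated members labelled Trpv4-null and 3.66 CPM in untreated WT members, against 33.2 and 25.3 CPM in the other untreated cells. Its LPS ratio of 6.36 with the Trpv4-null label and 6.55 in WT lay inside the range of the single clusters too, 1.27 to 7.13 and 1.15 to 6.92. Ccl3, a chemokine for inflammatory cells, went the other way, with ratios of 1.72 with the Trpv4-null label and 0.16 in WT in members, against 2.56 and 1.34 in the other cells. Taken cluster by cluster over the 7 others with at least 100 cells in each library, the interferon median ran from 0.76 to 3.79 with the Trpv4-null label and from 0.70 to 3.76 in WT, with the members at 3.58 and 3.66. Of 24 lists, the members' median lay outside the range of those clusters for 5 with the Trpv4-null label and for 3 in WT. Iron handling and S phase genes were among them in both. Every list has some cluster at either end, and how often each other cluster lay there was not counted. The iron handling median was -0.18 with the Trpv4-null label, against -0.11 to 0.42 in those clusters. In WT it was -0.38, against -0.31 to 0.40. The S phase median was -0.57 with the Trpv4-null label and -0.48 in WT, against -0.47 to 0.53 and -0.44 to 0.87 in those clusters. Its WT sign turned round under TMM.

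**Figure D3:**
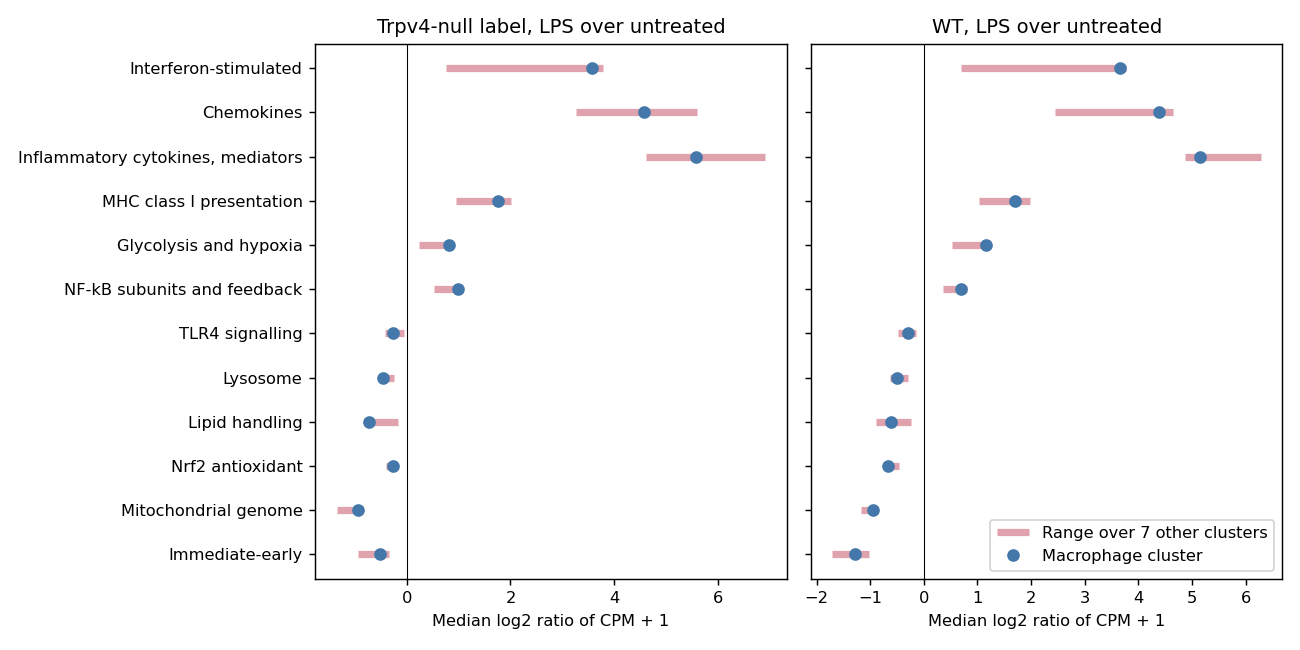
Median log2 ratio (LPS over untreated, CPM + 1) of 12 gene lists with the Trpv4-null label (left) and in WT (right). Points are the Macrophage cluster and bars span 7 other clusters. The interferon-stimulated list lies near the upper end of its bar in both genotypes, at 3.58 and 3.66. List medians near 0 change sign under another scaling.

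The LPS responses of the genotypes were alike in size for most genes. Of 6188 genes compared in both, the log2 ratio to untreated differed by less than 0.5 for 96.49% and by 1 or more for 31 (24 higher and 7 lower with the Trpv4-null label), and no gene was 2-fold or more higher in 1 genotype and 2-fold or more lower in the other. Without the 17 cells the count was 26, all of them among the 31 (24 higher and 2 lower). The 5 that were lost were Ngp, Wfdc21, S100a9, S100a8 and Lcn2. The largest differences on the higher side were those of Ccl4 (2.22), Fos (2.15), Id3 (2.10) and Dusp1 (2.02). Higher in both were 395 genes, 85.68% of the 461 counted with the Trpv4-null label and 93.82% of the 421 counted in WT. Lower in both were 1084 genes, 81.93% of 1323 and 92.97% of 1166.

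Untreated members labelled Trpv4-null and WT differed 2-fold or more in few genes. Of 6156 genes, 11 were higher with the Trpv4-null label (0.179%) and 8 lower (0.130%), and 98.08% lay within 0.5 log2 units. The highest ratios belonged to the 17 cells. S100a9 had 508 CPM with the Trpv4-null label and 118 CPM in WT (2.10), S100a8 had 326 and 80.1 CPM (2.01), and Ngp had 89.0 and 21.3 CPM (2.01). Without those cells, S100a9 had 0.799 CPM with the Trpv4-null label and 0.732 CPM in WT, and S100a8 had 2.47 and 1.68 CPM. Chil3, a chitinase-like protein, Ltf, which encodes lactoferrin, and Lcn2 had ratios of 1.83, 1.82 and 1.58 with those cells and 0.293 CPM or less in either library without them. The count of higher genes then fell to 5, and the count of lower genes stayed at 8. Of the 5, the 4 with a given name follow, with values taken without those cells. Ahrr, the repressor of the aryl hydrocarbon receptor, had 26.2 CPM with the Trpv4-null label and 7.69 CPM in WT (1.64). Mmp8, neutrophil collagenase, had 21.1 and 6.52 CPM (1.56), so most of its counts came from other members. Gpr141, an orphan receptor, had 42.1 and 13.7 CPM (1.55). Gcn1l1, a regulator of the amino acid starvation kinase, had 70.7 and 34.1 CPM (1.03). Just under 2-fold lay Ctsl, a lysosomal protease, at 2842 CPM with the Trpv4-null label and 1431 CPM in WT (0.99). Across the 7 other clusters the ratio ran from 0.79 to 2.19 for Ahrr, from 0.83 to 1.67 for Gpr141 and from 0.73 to 1.15 for Ctsl, above 0 in 7 of 7 for each.

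Immediate-early genes were on the lower side. Of 16 compared, 15 lay below 0 (median -0.46) and 3 were 2-fold or more lower. Over all genes the median was -0.03, 2542 of 6156 lay above 0 and 0.130% were 2-fold or more lower. Dusp1, a phosphatase that shuts off MAP kinases, had 99.04 CPM in untreated members labelled Trpv4-null and 302 CPM in untreated WT members (-1.60, ratio 0.328, interval 0.308 to 0.348). Fos, a subunit of the AP-1 factor, had 170 CPM with the Trpv4-null label and 451 CPM in WT (-1.40), and its relative Fosb had 68.4 and 185 CPM (-1.43). The thinned share of members with a Fos UMI, from 3000 UMIs per cell, was 30.95% with the Trpv4-null label and 55.72% in WT. Id3 had 59.5 CPM with the Trpv4-null label and 151 CPM in WT (-1.33). Cd83, a marker of activated antigen-presenting cells, had 19.2 and 45.5 CPM (-1.20). Cxcl2, a neutrophil chemokine, had 9.70 and 23.3 CPM (-1.18). Rgs1, a brake on G protein signalling, had 42.4 and 97.1 CPM (-1.18). In the 7 other clusters the ratio ran from -1.80 to -1.27 for Dusp1, from -1.56 to -0.99 for Fos and from -1.46 to -0.95 for Id3, and the list median from -0.75 to -0.31. For Dusp1, Fos and Id3 the sign was the members' own in 7 of 7 clusters. With 1 library per group, genotype, culture and handling cannot be told apart.

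**Figure D4:**
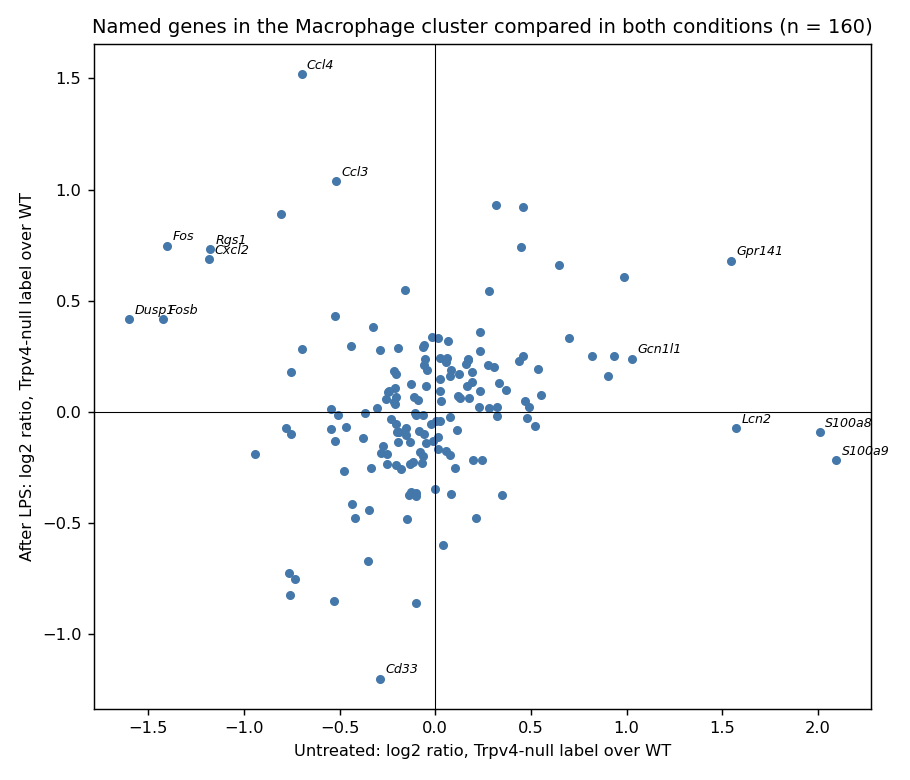
Log2 ratio of labelled Trpv4-null to WT in the Macrophage cluster, untreated (x axis) against after LPS (y axis), for the 160 named genes compared in both; genes at 2-fold or more on either axis carry their symbol. Dusp1, Fos, Fosb and Cxcl2 lie left of 0 and above 0, Ccl4 and Ccl3 near the top, Cd33 at the bottom, and S100a8 and S100a9, whose counts untreated come mainly from a few cells, at the right.

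After LPS, chemokine genes were higher and Il1b was lower in members labelled Trpv4-null than in WT members. Of 5257 compared, 6 were 2-fold or more higher with the Trpv4-null label (0.114%) and 2 lower (0.0380%). With each cell weighted equally 3 were higher and 3 lower. Of the 6, 4 were chemokines. Ccl4, a chemokine for T cells and macrophages, had 336 CPM with the Trpv4-null label and 116 CPM in WT (1.52, ratio 2.88, interval 2.78 to 2.99). Cxcl10 had 1517 and 713 CPM (1.09), Ccl3 had 179 and 86.9 CPM (1.04) and Ccl7, a monocyte chemokine, had 654 and 323 CPM (1.02). Their near relative Ccl2 had 740 CPM with the Trpv4-null label and 391 CPM in WT (0.92). All 13 chemokines compared lay above 0, with a median of 0.72, against -0.02 over all genes. Of all genes compared, 2287 of 5257 lay above 0. The other 2 of the 6 were Ly6a, an interferon-responsive surface protein, with 181 CPM with the Trpv4-null label and 82.8 CPM in WT (1.12), and Ccnd1, the cell-cycle regulator cyclin D1, with 40.5 and 19.3 CPM (1.03). The genes on the lower side included the interleukin-1 pair. Il1b had 129 CPM with the Trpv4-null label and 352 CPM in WT (-1.44, ratio 0.367, interval 0.353 to 0.382), and Il1a had 18.3 and 34.3 CPM (-0.87). In cells thinned to 3000 UMIs, 17.6% of members labelled Trpv4-null and 40.7% of WT members had an Il1b UMI after LPS, against 0.112% and 0.678% untreated. Cd33, an inhibitory receptor for sialic acid, had 19.2 CPM with the Trpv4-null label and 45.3 CPM in WT (-1.20). P2rx7, the ATP-gated channel upstream of interleukin-1 release, had 21.7 and 39.3 CPM (-0.83). P2rx7 was lower in untreated members too, at 54.86 CPM with the Trpv4-null label and 93.81 CPM in WT (-0.76). These untreated values were taken without the cells high in S100a8 and S100a9. The lower P2rx7 level was thus not particular to LPS members. Chemokines and Il1b thus went opposite ways in the same members. Tnf had 71.3 CPM with the Trpv4-null label and 48.5 CPM in WT (0.55). The subunits Nfkb1 and Rela lay at -0.15 and 0.07.

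Glycolysis and hypoxia genes lay below 0 for 19 of 20 compared between genotypes after LPS, by small amounts (median -0.32, 0 at 2-fold). Of all 5257 genes compared there, 2287 lay above 0 and the median was -0.02. Pfkfb3, which makes an activator of glycolysis, had 65.7 CPM with the Trpv4-null label and 97.1 CPM in WT (-0.56), and the hexokinase Hk2 had 32.0 and 47.4 CPM (-0.56). Hk3, another hexokinase, was the exception at 0.24. Immediate-early genes lay above 0 for 10 of 13 (median 0.22), the other side from untreated members. Fos had 136 CPM after LPS with the Trpv4-null label and 80.4 CPM in WT (0.75), and Dusp1 had 149 and 112 CPM (0.42). The lipid genes that name other clusters were on the higher side too. Apoe had 390 CPM with the Trpv4-null label and 205 CPM in WT (0.92), and Lpl, which encodes lipoprotein lipase, had 709 and 382 CPM (0.89). Across the 7 other clusters the ratio ran from 0.57 to 1.64 for Ccl4, from 0.31 to 0.87 for Cxcl10, from -1.47 to -0.78 for Il1b and from -1.27 to -0.62 for Cd33. The chemokine median ran from 0.53 to 0.88 and the glycolysis median from -0.46 to -0.16. All of these had the sign seen in the members in 7 of 7 clusters. For Cxcl10 the members' 1.09 lay above that range, a difference that was not tested.

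**Figure D5:**
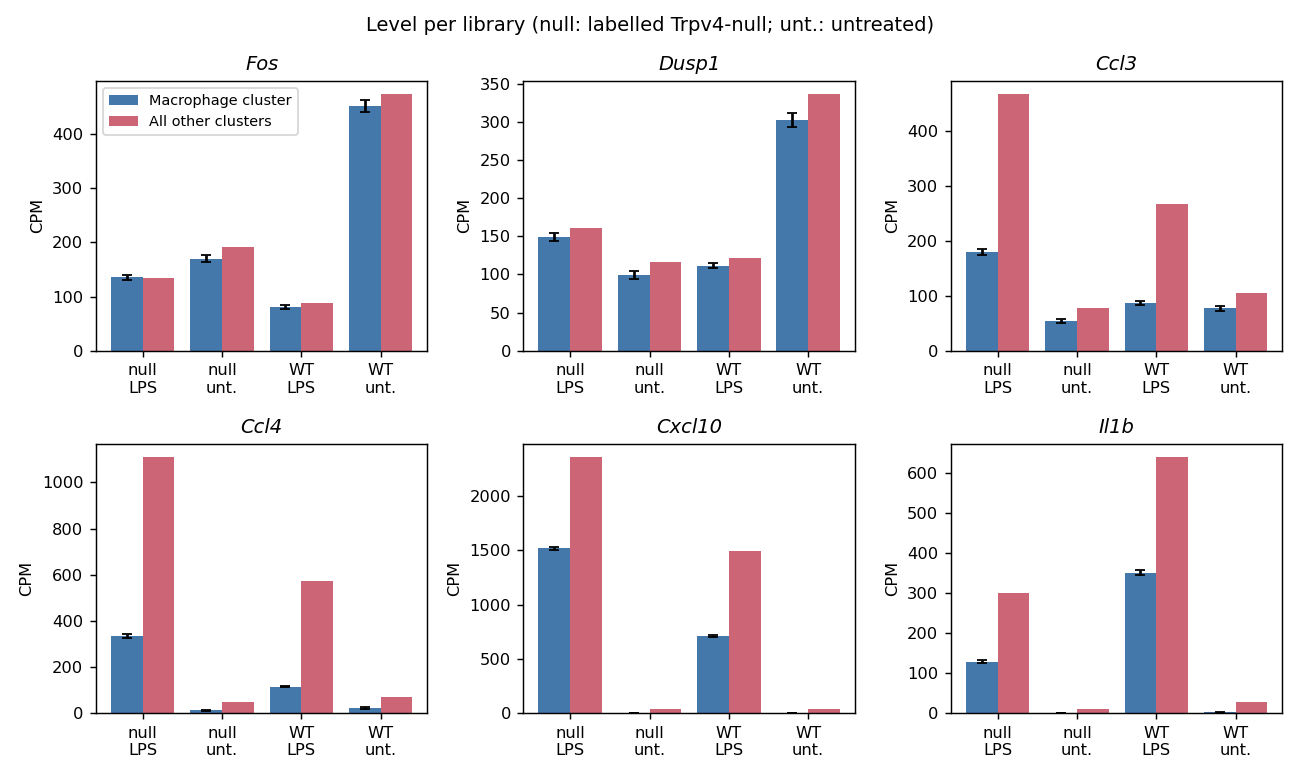
Level (CPM) of 6 genes in the Macrophage cluster (bars with exact Poisson 95% intervals) and in all other clusters together, per library. Fos and Dusp1 are highest in untreated WT cells (451 and 302 CPM in the cluster), Ccl3, Ccl4 and Cxcl10 in the LPS library labelled Trpv4-null, and Il1b in the WT LPS library.

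Members also varied among themselves. Among genes with a given name, Saa3 had the widest spread in both LPS libraries, in cells thinned to 3000 UMIs and without the 17 cells. Malat1, a nuclear long non-coding RNA, had the widest among them in both untreated libraries. The Saa3 10th percentile, median and 90th percentile were 26, 108 and 228.6 UMIs per cell after LPS with the Trpv4-null label, and 39, 128 and 249.9 UMIs in WT. The variance over mean (Fano factor) of Saa3 was 54.4 with the Trpv4-null label and 48.6 in WT, against 1.03 for the median gene of either library. Pure counting noise gives 1. Malat1 had a Fano factor of 8.26 after LPS and 18.8 untreated with the Trpv4-null label, and 9.87 and 18.4 in WT. Fth1 was second in all 4 libraries, with 20.7 after LPS and 13.5 untreated with the Trpv4-null label, and 20.7 and 16.2 in WT. Ccl5 had a Fano factor of 13.6 after LPS with the Trpv4-null label and 12.0 in WT. Marco was high in few cells: 6.67% of thinned members labelled Trpv4-null and 14.4% of thinned WT members had a Marco UMI after LPS, with up to 34 and 27 UMIs in 1 cell. In the untreated libraries 0% and 0.181% of thinned members had 1. Apoe was uneven in untreated members, with Fano factors of 6.59 with the Trpv4-null label and 6.79 in WT. Over all members, of 3654 genes past a mean of 0.1 UMIs per thinned cell after LPS with the Trpv4-null label, 66 had a Fano factor of 2 or more, and 47 of 4427 did untreated. In WT it was 58 of 3720 after LPS and 48 of 4462 untreated. For most genes the spread at this depth was thus close to that of counting alone. Genes with few UMIs per thinned cell give a value near 1 even where cells differ, so members need not be alike in them.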

How the data were processed

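The deposited table held raw UMI counts of 14432 genes in 27366 cells, as the authors deposited it. The submitters' processing notes name Cell Ranger 3.1.0, Seurat 4, R 4.2 and the build mm10 without a role or order. The authors' annotation gave each cell its library, its cluster and, as a fraction, the share of its UMIs from the mitochondrial genome, per the file headers. The sources used here do not give filters on cells, the handling of doublets or the use of strand, so reads of overlapping or antisense genes cannot be told apart. In the deposited cells UMIs ran from 1003 to 39987 and the mitochondrial share reached 9.998%.

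Counts were summed over Macrophage cells per library and divided by their total (CPM). Ratios are log2 of CPM + 1. Genes were compared at 20 CPM and 30 UMIs or more in the higher library, and 2-fold is a size and not a test. Intervals at 95% are exact: Poisson for levels, conditional for ratios and Clopper-Pearson for shares. Intervals cover counting error only. For spread among cells, cells were thinned to 3000 UMIs with a fixed seed and shallower cells were left out. TMM factors came from edgeR 4.0.16 in R 4.3.3, figures from matplotlib 3.10.9, and all else from pandas 2.3.3, scipy 1.17.1 and numpy 2.4.6 in Python 3.11.15, and the computation was tested on simulated data.

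The members, the 24 pathway lists, the 14 marker lists and the settings were chosen with earlier results of these data known. The genes named were the 10 highest and 10 lowest ratios of each comparison (gene models without a name skipped), up to 4 genes per list, the 6 highest Fano factors per library, the genes that name clusters and a short list of LPS genes, 259 in all. Of the markers of other cell types, those with the highest counts and the lymphocyte markers in the table were named after their values were seen, as were Wfdc21 and Ifit1. Other settings were TMM and median-of-ratios factors, a pseudocount of 5 CPM, no CPM floor, equal weight per cell, thinned cells, leaving out the 5% of cells with most UMIs (as doublets would be) and, chosen after seeing the data, leaving out the 17 cells in which S100a8 and S100a9 held 1% or more of UMIs. Comparison with each other cluster on its own was also chosen after seeing the data. Promoters came from RefSeq (GRCm38.p6), with 196 of 259 named genes matched by symbol.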

Additional observations from a re-analysis of the deposited data

Results flagged for a closer look

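Some genes of the Macrophage cluster had a genotype or LPS ratio of opposite sign in the 2 arms of the same comparison (the genotypes, or LPS and untreated cells). In every case the difference was not tested, since each group is 1 library. All values are log2 ratios of CPM + 1.

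For LPS over untreated, Dusp1 had 0.59 with the Trpv4-null label and -1.43 in WT, and Gpr141 had -0.32 with the Trpv4-null label and 0.54 in WT. The Gpr141 value with the Trpv4-null label turned round under TMM and median-of-ratios factors.

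For labelled Trpv4-null over WT, 5 immediate-early and related genes were higher after LPS and lower in untreated cells. Dusp1 had 0.42 after LPS and -1.60 untreated, Fos 0.75 and -1.40, Fosb 0.42 and -1.425, Klf2, a transcription factor that restrains inflammation, 0.38 and -0.32, and Rgs1 0.73 and -1.18.

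Of chemokines, Ccl3, Ccl4 and Cxcl2 did likewise, while of the 6 compared in untreated cells 2 lay above 0. Of all genes compared in untreated cells, 2542 of 6156 did. Ccl3 had 1.04 after LPS and -0.52 untreated, Ccl4 1.52 and -0.70, and Cxcl2 0.69 and -1.185. Of lipid genes, the scavenger receptor Cd36 had 0.43 after LPS and -0.52 untreated, and Lpl had 0.89 and -0.81. The metallothionein Mt1 went the other way, with -0.37 after LPS and 0.35 untreated.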

How the results depend on the processing

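No paired analysis was possible because each group is 1 library and the labels give no replicate numbers, and for the same reason no replicate could be left out. TMM factors gave 976 higher and 523 lower genes for LPS with the Trpv4-null label and 893 and 419 in WT, and median-of-ratios factors gave 1029 and 504 with the Trpv4-null label and 877 and 425 in WT. Without the CPM floor more genes entered: 706 higher and 2485 lower for LPS with the Trpv4-null label, 2103 lower in WT, 34 higher and 27 lower between genotypes untreated, and 18 and 10 after LPS. With each cell weighted equally 3 genes were higher between genotypes after LPS, and the cause was not tested. Among cells with 3000 UMIs or more the share was 33.87% untreated with the Trpv4-null label and 34.75% in untreated WT. Against the other clusters, 2 genes were higher without the Proliferating cluster and 23 lower with the clusters weighted equally.

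Without the 17 cells high in S100a8 and S100a9, a setting chosen after seeing the data, 5 genes were higher between genotypes untreated. Chil3 then stood at -0.27, Ltf at -0.20 and Ngp at -0.00143, all from 0.293 CPM or less. The LPS ratio of S100a8 turned round to 1.43 with the Trpv4-null label, against -3.40 with those cells, and to 2.35 in WT, against -1.30 with those cells. Of the counts and shares recomputed, 55 stayed within 1.5 times of the value given or within its interval and 21 did not. Of the values of named genes, 5111 were classed as the same, 2036 as moved and 5 as reversed. Of the list values, 631 were classed as the same and 137 as moved. The remaining limits are 1 library per group, uneven depth between LPS and untreated cells, and few UMIs for genes near 1 CPM.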
